A study of Mus musculus with 2 samples.

Results

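The peroxisome proliferator-activated receptor alpha (PPARα) and 7 genes that work with it or under it in the fasted liver were followed in spatial transcriptomics (ST) data: Ppara itself, Ppargc1a, Pdk4, Angptl4, Vnn1, Fgf21, Acot1 and Creb3l3. The genes were chosen by symbol, and all 8 were found among the 19465 genes of the deposited count matrices. The rule itself uses no measured value, but the genes were chosen with earlier results of these data known. Each gene was described by its level, its ratio between 2 genotypes and its place along the liver lobule.

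The livers came from 1 mouse without AEG-1 in myeloid cells (AEG-1ΔMAC, written AEG-1DMAC in the labels) and 1 floxed littermate (AEG-1fl/fl, called the floxed liver below). AEG-1, also called metadherin, is the product of Mtdh. Both mice were on a C57BL/6/J background and carried the floxed Mtdh allele, and in the AEG-1ΔMAC mouse a Cre recombinase expressed from the Lyz2 locus deletes it in macrophages and other myeloid cells, while hepatocytes keep the gene. By the labels both mice were 27 weeks old and had been fed a diet rich in fat and sugar (HF/HSD) since the age of 7 weeks, which makes 20 weeks, but in the study's methods the sections for ST are from littermates on control diet. Which diet they ate cannot be settled from these sources, and whether the livers were taken in the fed or fasted state and at what hour is not given in the sources used here. With 1 section per genotype there was no replicate, so no test between genotypes was possible and no p-value is given.

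PPARα is a nuclear receptor that binds fatty acids and, paired with a retinoid X receptor, switches on genes for fatty acid oxidation and ketone production when fat reaches the liver during fasting. Ppargc1a encodes PGC-1α, a coactivator that fasting induces and that assists PPARα. Creb3l3 encodes CREBH, a liver transcription factor held in the endoplasmic reticulum membrane until it is cleaved, which acts with PPARα on Fgf21 and on genes of triglyceride clearance. Liver lobules run from the portal side, zone 1, to the central vein, zone 3, and hepatocytes differ in metabolism along that axis.

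The assay was 10x Visium on formalin-fixed, paraffin-embedded sections, in which probe pairs for each gene are captured on barcoded spots and counted as unique molecular identifiers (UMIs). A spot is a small region that holds several cells. The spot limits stated by the study were applied to the deposited matrices. The AEG-1ΔMAC section kept 2140 of 2149 spots and 45453286 UMIs, and the floxed section kept 2540 of 2543 spots and 50322850 UMIs. Medians were 20929.5 and 18285 UMIs per spot. The study itself reports 2149 and 2543 spots as left after its filter. The capture areas use a common barcode set and 1782 barcodes were present in both libraries. The summed hepatocyte markers Alb, Apoa1, Ttr and Apob reached 137711.9 UMIs per 1e6 of the library total (CPM) in the AEG-1ΔMAC liver and 202091.6 CPM in the floxed liver, so the tissue matched its label. Mtdh was at 66.3 and 60.2 CPM, which cannot check a deletion limited to myeloid cells in a liver where all other cells keep the gene. Lyz2, which drives the Cre, had only 25 and 41 UMIs.

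Promoter sequences were matched in RefSeq (build GRCm38.p6) for 6 of the 8 genes, all but Angptl4 and Vnn1. Those of Pdk4 and Fgf21 are shown because these were the genes that differed most between the livers. Each runs 5′ to 3′ on the gene's own strand from 250 bases before the transcription start to 50 bases after it, and capitals mark the motif matches described next.
Pdk4 promoter, chr6:5496229-5496528, minus strand: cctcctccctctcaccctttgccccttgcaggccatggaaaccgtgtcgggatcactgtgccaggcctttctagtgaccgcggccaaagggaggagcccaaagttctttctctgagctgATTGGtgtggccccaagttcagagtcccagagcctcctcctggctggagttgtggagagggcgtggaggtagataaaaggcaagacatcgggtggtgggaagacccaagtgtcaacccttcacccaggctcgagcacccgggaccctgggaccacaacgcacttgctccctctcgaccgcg
Fgf21 promoter, chr7:45615441-45615740, minus strand: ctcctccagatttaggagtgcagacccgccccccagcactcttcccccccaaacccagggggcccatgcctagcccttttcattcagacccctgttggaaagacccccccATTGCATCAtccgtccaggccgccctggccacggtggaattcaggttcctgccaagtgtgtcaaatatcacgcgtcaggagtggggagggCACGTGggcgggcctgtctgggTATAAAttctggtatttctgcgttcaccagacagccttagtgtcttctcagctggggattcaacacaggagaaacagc

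Both strands of the 7 promoters of the 6 genes (Creb3l3 has 2) were searched for 6 motifs, chosen with these genes in mind. They were the direct repeat of AGGNCA spaced by 1 base to which PPARα binds (DR1), the ATF4 composite element TGATGNAAT, the E-box CACGTG, the motif GTAAACA bound by FoxO factors, the TATA box written as TATAAA, and the CCAAT box. The Fgf21 promoter held ATTGCATCA, the ATF4 element read on the other strand, at base -140, where base 1 is the first transcribed base. This element was present in 0.97% of 27025 genes' promoters of the same length. Fgf21 also held CACGTG at base -50, a motif in 7.24% of all promoters, and TATAAA at base -28, found in 14.2%. The Pdk4 promoter held CCAAT on the other strand at base -131, and CCAAT was also matched at base -95 in the first Creb3l3 promoter and at base -79 in Acot1, against 37.9% of all promoters. No DR1 was matched in any of the 7 windows, and the share of all promoters with it was 0.38%. The FoxO motif was not matched in them either, against 3.55% of all promoters. A match is a string of letters in a short window and not a measured binding site. Nothing follows about a factor from a window without one.

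Between the livers, the 8 genes did not move as a block. In the AEG-1ΔMAC liver Pdk4 and Fgf21 were 2.85-fold and 2.84-fold lower than in the floxed liver, Acot1 was lower by a smaller ratio, Ppara and Creb3l3 were near equal, and Angptl4, Vnn1 and Ppargc1a were higher. A gene was called here when its ratio was at least 1.5 and its exact 95% interval lay on the same side of 1, an interval that covers counting error only and not the spread between mice. By this rule 0 of 8 genes were called higher and 2 lower. Among the 11178 genes tested (mean level 1 CPM or more), 5.28% were called higher and 3.9% lower. The median log2 ratio (AEG-1ΔMAC divided by the floxed liver) of the 8 genes was 0.0041, which was -0.13 relative to the median of all genes at 0.13. Because the median of all genes was above 0, ratios are also given relative to it. On that centred scale 3 of the 8 genes lay above 0 and 5 below. Of the 3 above, Ppargc1a had an interval that included 0.

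**Figure D1:**
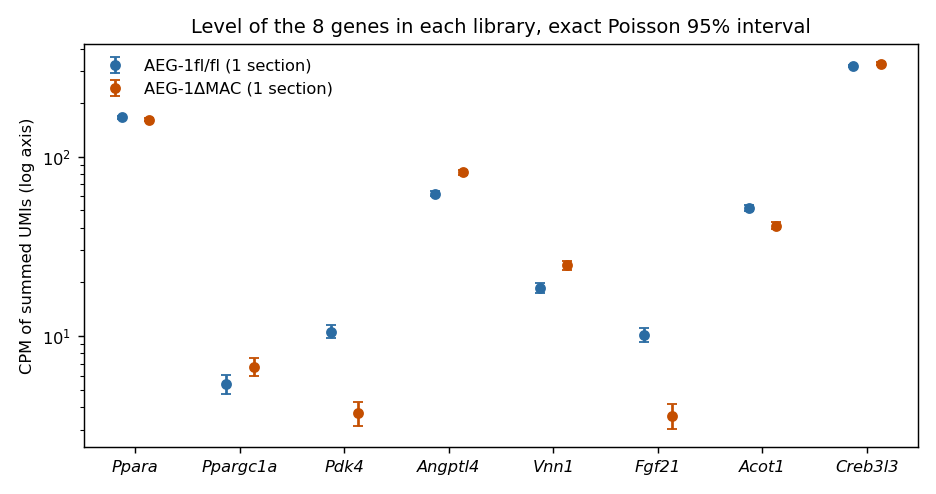
Level of each gene in CPM of summed UMIs on a log axis, 1 point per library with its exact Poisson 95% interval. Pdk4 and Fgf21 are near 10 CPM in the floxed liver and near 3.6 CPM in the AEG-1ΔMAC liver, and for Ppara and Creb3l3 the points of the livers lie side by side. Levels of different genes depend on their probes and cannot be ranked against each other.

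The receptor was measured at nearly the same level in both livers. Ppara, on chromosome 15 of build GRCm38 (85734983 to 85802819), had 160.5 CPM from 7295 UMIs in the AEG-1ΔMAC liver and 165.1 CPM from 8309 UMIs in the floxed liver. Its log2 ratio was -0.04 (95% interval -0.09 to 0.00), which was -0.17 relative to all genes. Its coactivator gene Ppargc1a, on chromosome 5 (51454250 to 51567726), was measured at 6.73 CPM from 306 UMIs and 5.39 CPM from 271 UMIs, with a log2 ratio of 0.32 (0.08 to 0.56). Ppargc1a was 1.25-fold higher in the AEG-1ΔMAC liver, its value relative to all genes was 0.19, and 81.3% of the genes tested had a lower ratio. The interval of Ppargc1a included the median of all genes at 0.13. Creb3l3, on chromosome 10 (81084324 to 81098874), stood at 330.0 CPM from 15000 UMIs and 319.0 CPM from 16051 UMIs. Its log2 ratio was 0.05 (0.02 to 0.08) as scaled by total UMIs, and it was -0.08 relative to all genes, so the direction of Creb3l3 depends on the scaling. None of the 3 regulators reached the ratio of 1.5.

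The targets split. Pdk4, on chromosome 6 (5483351 to 5496309), encodes a kinase that inactivates pyruvate dehydrogenase and so spares glucose. It was at 3.70 CPM (3.16 to 4.30) from 168 UMIs in the AEG-1ΔMAC liver and at 10.6 CPM (9.67 to 11.5) from 531 UMIs in the floxed liver. Pdk4 was thus 2.85-fold lower in the AEG-1ΔMAC liver, with a log2 ratio of -1.51 (-1.77 to -1.26), and only 0.617% of the genes tested had a lower ratio. Fgf21, on chromosome 7 (45613886 to 45615490), encodes a hormone that the liver secretes in fasting under PPARα and in amino acid shortage under ATF4. It was at 3.56 CPM from 162 UMIs in the AEG-1ΔMAC liver and 10.1 CPM from 509 UMIs in the floxed liver. Its log2 ratio was -1.50 (-1.77 to -1.25), or 2.84-fold lower, with 0.644% of genes below it. These genes lie on different chromosomes and their ratios overlapped within counting error.

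Angptl4, on chromosome 17 (33773750 to 33781830), encodes a secreted inhibitor of lipoprotein lipase and was higher in the AEG-1ΔMAC liver. It had 81.6 CPM from 3711 UMIs against 62.1 CPM from 3127 UMIs, and its log2 ratio was 0.39 (0.32 to 0.46). Vnn1, on chromosome 10 (23894688 to 23905343), encodes vanin-1, a pantetheinase that recycles vitamin B5 from coenzyme A breakdown. Vnn1 was at 24.7 CPM from 1122 UMIs against 18.5 CPM from 931 UMIs, with a log2 ratio of 0.42 (0.29 to 0.54). Relative to all genes the values were 0.26 for Angptl4 and 0.29 for Vnn1, and 87.8% and 89.1% of the genes tested had lower ratios. Both intervals lay above the median of all genes, on the opposite side from Pdk4 and Fgf21, and neither gene reached the ratio of 1.5.

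Acot1, on chromosome 12 (84009490 to 84018371), encodes a cytosolic thioesterase that frees fatty acids from acyl-CoA. Its level was 41.1 CPM from 1868 UMIs in the AEG-1ΔMAC liver and 51.8 CPM from 2607 UMIs in the floxed liver, a log2 ratio of -0.33 (-0.42 to -0.25) and -0.46 relative to all genes. Acot1 was therefore lower beyond counting error but was not called. Of the 2245 different windows of 50 bases in its annotated transcripts, 23.5% also occur in Acot2, its neighbour on chromosome 12 (83987861 to 83993873), and 32.7% occur in some other protein-coding gene. The place of the probes was not used here, so UMIs of Acot1 may include those of a near-identical relative. In the other 7 genes at most 1.38% of such windows were shared. Acot2 was at 5.41 and 6.22 CPM, with a log2 ratio of -0.20 (-0.45 to 0.04).

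**Figure D2:**
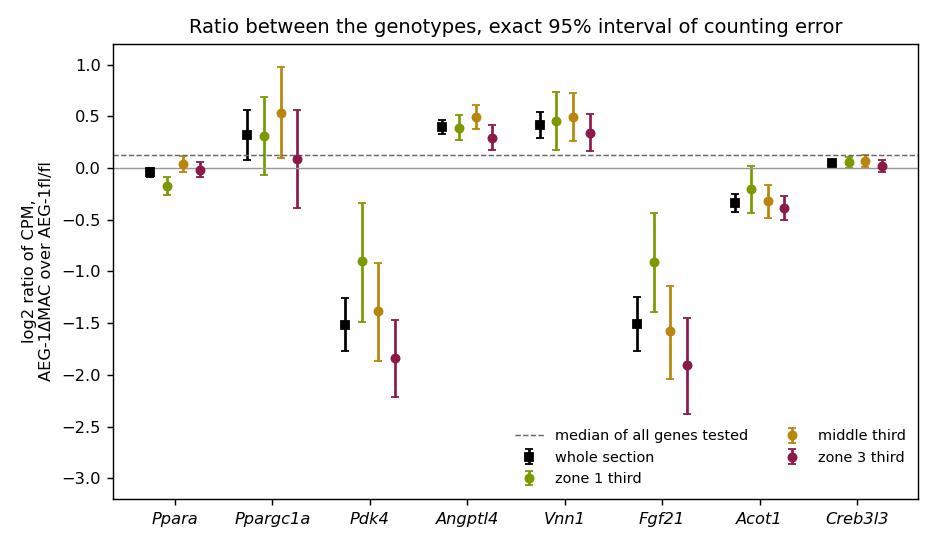
Log2 ratio between the livers (AEG-1ΔMAC divided by floxed, CPM) for the whole section (black squares) and for the 3 parts of the zone index in each library (coloured points), with exact 95% intervals of counting error and a dashed line at the median of all genes. Pdk4 and Fgf21 lie below 0 in every part and farthest below in zone 3, where their intervals overlap those of the middle part. Angptl4 and Vnn1 lie above 0 in every part.

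Spots with at least 1 UMI were also counted. Pdk4 was detected in 7.57% of spots of the AEG-1ΔMAC section and 17.1% of spots of the floxed one. After each spot was thinned to 10000 UMIs, which left 2114 and 2434 spots and dropped 26 and 106 shallower spots, these shares were 3.60% (2.84 to 4.48, exact binomial) and 9.86% (8.70 to 11.1). Fgf21 was detected in 7.38% and 17.5% of spots, and after thinning in 3.74% (2.97 to 4.64) and 9.08% (7.97 to 10.3). Both genes were therefore sparse in either liver, with at most 2 UMIs in any AEG-1ΔMAC spot and 4 in any AEG-1fl/fl spot. Their UMIs were compared with Poisson counts expected from each spot's depth and its place along the lobule. The variance over that of such a count lay between 0.97 and 1.12 for both genes in both libraries. That ratio leaves out differences along the lobule and, at so few UMIs per spot, is a weak check of clustering. The thinned share of spots with Angptl4 was 57.1% (55.0 to 59.2) in the AEG-1ΔMAC liver and 46.8% (44.8 to 48.8) in the floxed liver. Vnn1 was found in 21.4% and 15.7% of thinned spots, and Acot1 in 31.6% and 37.3%. Ppargc1a was found in 6.01% (5.03 to 7.11) and 4.52% (3.73 to 5.42). Shares for the receptor and for Creb3l3 were close between the livers, at 77.3% and 78.9% for Ppara and 96.1% in both for Creb3l3. Before thinning the share for Ppara was 93.6% in the AEG-1ΔMAC liver and 91.8% in the floxed liver, the opposite order, so no order is read from it.

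Along the lobule, spots of each library were ranked on a zone index, the mean of the study's zone 3 markers Cyp2e1, Cyp1a2 and Oat minus that of its zone 1 markers Arg1, Hsd17b13, Cyp2f2, Gls2, Hal and Pck1, and split into 3 equal parts. The values below are log2 ratios of CPM, zone 3 part over zone 1 part, within a library. None of the 8 genes was in the index, and 6 zone 3 landmark genes outside it had median ratios of 2.34 in the AEG-1ΔMAC liver and 2.40 in the floxed liver, against -1.12 and -0.79 for 8 zone 1 landmarks. In AEG-1ΔMAC 3 of the 8 genes were called higher in zone 3 (3.83% of all genes tested) and 1 in zone 1 (4.8%). In AEG-1fl/fl 4 were called higher in zone 3 (4.2%) and 0 in zone 1 (3.84%).

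Acot1 had the highest zone ratio of the 8 genes in either liver, although in the floxed liver its interval overlapped that of Pdk4. It went from 18.9 to 68.5 CPM across the parts in the AEG-1ΔMAC liver and from 21.9 to 89.4 CPM in the floxed liver, ratios of 1.85 (1.66 to 2.05) and 2.03 (1.86 to 2.20). In the outermost of 10 bins it reached 96.9 and 133.1 CPM, from 12.0 and 11.1 CPM at the zone 1 end. Vnn1 also lay towards zone 3, at 35.9 CPM there against 15.9 CPM in zone 1 of AEG-1ΔMAC and at 28.3 against 11.6 CPM in the floxed liver. The Vnn1 ratios of 1.17 and 1.29 differed by -0.11 (-0.44 to 0.21), within counting error. The receptor gene had a shallower slope the same way, with Ppara at 187.6 CPM in zone 3 of AEG-1ΔMAC and 189.7 CPM in zone 3 of the floxed liver. In zone 1 Ppara was at 129.9 and 146.7 CPM, so its ratios were 0.53 and 0.37 and neither reached the call. Between the outer 10% of spots at each end, the Ppara ratio in AEG-1ΔMAC was 0.68 (0.53 to 0.83) and was called, which made 4 genes called higher in zone 3 there.

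Ppargc1a ran the opposite way. Its level in the zone 1, middle and zone 3 parts was 8.48, 6.58 and 5.13 CPM in the AEG-1ΔMAC liver, from 128, 101 and 77 UMIs. In AEG-1fl/fl the corresponding values were 6.82, 4.53 and 4.84 CPM, from 113, 79 and 79 UMIs. The ratios of -0.72 (-1.15 to -0.31) and -0.50 (-0.93 to -0.07) both lay on the zone 1 side and differed by -0.23 (-0.81 to 0.35). Only the AEG-1ΔMAC value was called, and that call was lost when spots were thinned to 10000 UMIs, where the ratios were -0.48 and -0.81. Angptl4 and Creb3l3 varied least along the lobule. Angptl4 had ratios of 0.03 (-0.09 to 0.14) and 0.12 (-0.00 to 0.25), and those of Creb3l3 were -0.10 (-0.16 to -0.04) and -0.07 (-0.12 to -0.01).

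**Figure D3:**
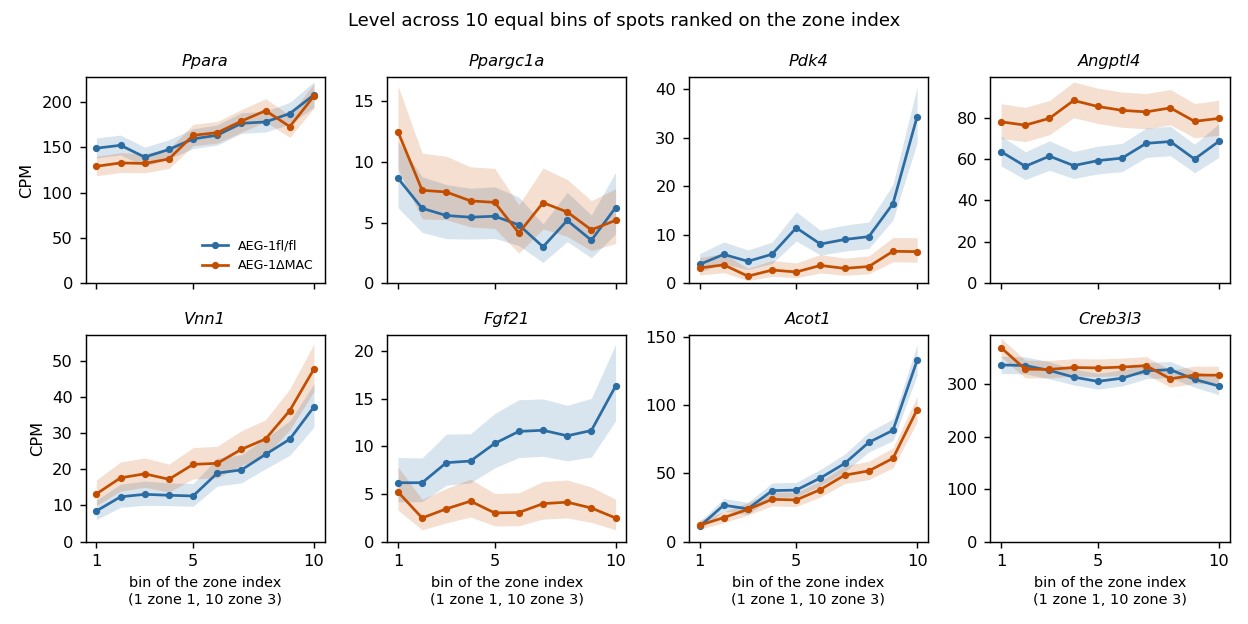
Level in CPM of each gene across 10 equal bins of spots ranked on the zone index within each library, from zone 1 (bin 1) to zone 3 (bin 10), with exact Poisson 95% bands. Pdk4 reaches 34.4 CPM in the last AEG-1fl/fl bin and 6.55 CPM in the last AEG-1ΔMAC bin, Fgf21 climbs only in the floxed liver, and Acot1 and Vnn1 climb in both.

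The genes called lower in the AEG-1ΔMAC liver were also those whose zonal slope differed most between the livers. Pdk4 in the floxed liver was at 4.95 CPM in the zone 1 part, 8.84 CPM in the middle and 18.1 CPM in the zone 3 part. In AEG-1ΔMAC it was at 2.65, 3.39 and 5.07 CPM, from 40, 52 and 76 UMIs. Its zone ratio was 1.87 (1.51 to 2.24) in the floxed liver and 0.93 (0.36 to 1.52) in the AEG-1ΔMAC liver, a difference of -0.93 (-1.59 to -0.28). The slope of Pdk4 was therefore on the zone 3 side in both livers and, in this main setting, smaller in the AEG-1ΔMAC liver beyond counting error. The share of all genes with such a slope difference was not computed. Genes of the lists read below also differed in slope, among them Cyp4a14 (1.31 in AEG-1ΔMAC, 2.05 in the floxed liver) and Mt2 (-0.95 and 0.63). Hamp differed the other way (0.31 and -0.71). Over the 6 other settings the difference for Pdk4 ran from -2.09 to -0.58, and no interval of it was computed there. With an index from the landmark genes the ratios in AEG-1ΔMAC and the floxed liver were 1.16 (0.58 to 1.76) and 1.74 (1.40 to 2.08). With thinned spots they were 0.90 (0.09 to 1.73) and 1.72 (1.23 to 2.23). In both of these settings the intervals of the livers overlapped, so a smaller slope beyond counting error is not claimed for them. With parts ranked over both libraries together the ratio in the AEG-1ΔMAC liver was 0.50 (-0.07 to 1.11), and the call there was lost, as it was at a ratio of at least 2.

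Fgf21 was at 6.95, 10.9 and 12.5 CPM in the zone 1, middle and zone 3 parts of the floxed liver, from 115, 190 and 204 UMIs. In AEG-1ΔMAC it was at 3.71, 3.65 and 3.33 CPM, from 56, 56 and 50 UMIs. The zone ratio was 0.85 (0.51 to 1.19) in the floxed liver, which was called, and -0.15 (-0.73 to 0.42) in the AEG-1ΔMAC liver, which was not. Their difference was -1.001 (-1.64 to -0.36), and over the same settings it ran from -2.47 to -0.99. When only the outer 10% of spots at each end were compared, the Fgf21 ratio was 1.40 (0.76 to 2.07) in the floxed liver. In the AEG-1ΔMAC liver it was -1.07 (-2.26 to 0.02), which included 0 and was not called. The zone slope of Ppara differed by 0.16 (0.05 to 0.27) in the other direction, and by 0.09 to 0.20 over the same settings. With the landmark index the Ppara ratios in AEG-1ΔMAC and the floxed liver were 0.46 (0.37 to 0.54) and 0.37 (0.29 to 0.45), with overlapping intervals. In the main setting the difference was -0.18 (-0.43 to 0.07) for Acot1, -0.09 (-0.26 to 0.08) for Angptl4 and -0.03 (-0.11 to 0.05) for Creb3l3.

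Read part by part, the ratio between the livers for Pdk4 was -0.90 (-1.49 to -0.34) in zone 1, -1.38 (-1.87 to -0.92) in the middle and -1.83 (-2.22 to -1.47) in zone 3. For Fgf21 it was -0.90 (-1.39 to -0.43), -1.58 (-2.04 to -1.14) and -1.91 (-2.38 to -1.45). Both genes were lower in all 3 parts and most so in zone 3, although for each the intervals of the middle and zone 3 overlapped. Angptl4 was higher in all 3, at 0.39, 0.50 and 0.30, and so was Vnn1, at 0.46, 0.50 and 0.34. Acot1 was at -0.21 (-0.44 to 0.02), -0.32 (-0.48 to -0.16) and -0.38 (-0.50 to -0.27). Ppara was at -0.18 (-0.26 to -0.09) in zone 1, 0.04 (-0.04 to 0.12) in the middle and -0.02 (-0.09 to 0.06) in zone 3, so that its interval lay below 0 in zone 1 and included 0 in the other parts. The median of all genes was 0.12, 0.14 and 0.12 in these parts, and the interval of Ppara lay below it in each.

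The livers differed in zone markers. Between the livers, the 6 zone 3 landmarks outside the index had a median log2 ratio of 0.73. They were mixed, from -0.19 (Tbx3) to 1.22 (Lgr5, at only 1.39 CPM in AEG-1ΔMAC and 0.60 CPM in the floxed liver). The 8 zone 1 landmarks had a median of 0.015, from -0.91 (Aldh1b1) to 0.32 (Pigr). When spots of both libraries were ranked together, 43.7% of spots from AEG-1ΔMAC and 24.6% from the floxed liver fell in the zone 3 part, and 22.9% and 42.1% in the zone 1 part. Weighting 10 bins of this joint index equally moved the log2 ratio of Acot1 from -0.33 to -0.77, and Acot1 was then called lower, so that 3 of 8 genes were. The same weighting gave -1.91 for Pdk4, -1.58 for Fgf21, 0.44 for Ppargc1a, 0.37 for Angptl4 and 0.12 for Vnn1. The median of all genes was 0.11 under this weighting, so Vnn1 lay near it. Whether the sections held different amounts of each zone or differed in the marker genes themselves cannot be told apart.

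Markers of other cells were read beside these ratios. The summed CPM in the AEG-1ΔMAC liver and AEG-1fl/fl was 560.5 and 540.6 for 5 Kupffer cell markers, 364.0 and 363.2 for 5 endothelial markers, 406.6 and 408.2 for 5 stellate cell markers and 87.3 and 88.2 for 5 cholangiocyte markers. The 3 smooth muscle markers summed to 26.6 and 25.3 CPM and the 3 lymphocyte markers to 7.37 and 10.2 CPM. Of 3 erythroid markers 2 were measured, and they summed to 711.1 and 844.2 CPM (log2 ratio -0.25). Of 4 adipocyte markers, which matter here because fat also expresses Angptl4 and Pdk4, 1 and 2 were at 0 and the sum was 0.154 and 0.159 CPM. The 4 hepatocyte markers had a log2 ratio of -0.55, and their part in the results was not tested. In sums over spots, fewer cells of a type and less RNA per cell cannot be told apart.

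The nonparenchymal markers pool all the sets above except the hepatocyte one. Of these sets the erythroid one had the largest sum in both livers, so spots rich in them are not read as any single cell type. In the 10% of spots richest in nonparenchymal markers, Pdk4 was at 14.6 CPM against 10.1 CPM elsewhere in the floxed liver, a log2 ratio of 0.53 (0.14 to 0.90). In AEG-1ΔMAC it was at 5.43 against 3.51 CPM, or 0.63 (-0.06 to 1.26). Acot1 was lower in such spots, by -0.53 (-0.76 to -0.31) in the floxed liver and -0.28 (-0.53 to -0.04) in the AEG-1ΔMAC liver. Fgf21 was at 9.88 against 10.1 CPM in the floxed liver and 2.71 against 3.66 CPM in the AEG-1ΔMAC liver, with intervals that included 0. Leaving these spots out kept Pdk4 and Fgf21 called lower.

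The 5 genes with mean levels of 10 CPM or more were compared in pattern over 20 points, 10 zone bins in each library, as a description with no test, since the points share library, depth and index. The pairs Ppara and Acot1 (Pearson r = 0.88), Vnn1 and Acot1 (r = 0.83) and Ppara and Vnn1 (r = 0.77) followed each other most closely. Creb3l3 ran against them, with r = -0.71 to Acot1 and r = -0.60 to Ppara. Angptl4 was nearly unrelated to Acot1 (r = -0.01) and Ppara (r = 0.04), with r = 0.44 to Vnn1 and r = 0.31 to Creb3l3. Among 6933 genes at that level, those most like Ppara were Cd302, Bdh1 and Gstm1 (r = 0.95, 0.94 and 0.94). Those most like Angptl4 were Adipor2, Naa80 and Lipc (r = 0.95, 0.94 and 0.94), with log2 ratios between the livers of 0.47, 0.81 and 0.53. Because the points span both livers, r takes in the difference between them as well as the slope along the lobule. Those most like Vnn1 were Tspo, Akr1c20 and Entpd5 (r = 0.98, 0.98 and 0.97). For Acot1 they were Paqr9, Gstm3 and Abcd3 (r = 0.97, 0.96 and 0.96), and for Creb3l3 they were Gc, Eppk1 and Qsox1 (r = 0.88, 0.81 and 0.80).

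The wider pathway was read from gene lists, by how many genes were called and by the median log2 ratio relative to all genes, while values of single genes are log2 ratios as scaled by total UMIs. The share of all genes tested called by the same rule was 5.28% higher and 3.9% lower, against which each count is to be read. On the scale relative to the median of all genes, an alternative chosen after seeing the data, the calls of Fgfr3 (0.57), Klf15 (0.48) and Tsc22d3 (0.56) were lost, while Hilpda (-0.71), Fasn (-0.58) and Acot9 (-0.62) were then called lower by the same rule. No other call in these lists changed. Of 16 PPAR receptors, partners and coregulators, 1 was called higher and 1 lower, with a median of 0.10. Lpin1, a phosphatidate phosphatase that also coactivates PPARα, was at 119.5 CPM in the AEG-1ΔMAC liver and 27.6 CPM in the floxed liver, a log2 ratio of 2.11 (2.03 to 2.20). Ppard, the delta receptor, was at 5.26 and 13.9 CPM, a log2 ratio of -1.41 (-1.62 to -1.19) close to those of Pdk4 and Fgf21. The PPARα partner Rxra was not called, at 251.1 and 182.7 CPM (0.46).

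Other PPARα targets were read in 2 lists. Of 27 genes of fatty acid oxidation and ketogenesis, 0 were called higher and 3 lower, with a median of -0.05. These were Crat, the carnitine acetyltransferase (-0.92), Cyp4a14, a fatty acid omega-hydroxylase (-0.80), and Ehhadh, an enzyme of peroxisomal oxidation (-0.59). Eci2 and Acsl1, which were not called, had 0.57 and 0.47. Acadvl, the very long-chain acyl-CoA dehydrogenase of mitochondria, had 0.37, and Cyp4a32 had -0.43. Of 14 targets of lipid storage, transport and thioester cleavage, 1 was called higher (Retsat, 0.85) and 3 lower, with a median of -0.15. Those lower were G0s2, an inhibitor of the triglyceride lipase ATGL (-1.19), Acot3 (-0.76) and the fatty acid transporter Cd36 (-0.63). Acot3 was sparse, at 1.65 CPM in the AEG-1ΔMAC liver and 2.80 CPM in the floxed liver, with an interval of -1.19 to -0.35.

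Relatives of the 8 genes showed whether the differences were shared within families. Pdk1, Pdk2 and Pdk3 had log2 ratios of 0.42, 0.08 and -0.13 and Pdp2, a phosphatase that opposes them, had 0.22, and none was called, unlike Pdk4 at -1.51. Among genes of the Angptl4 axis, Lpl, the lipase that ANGPTL4 inhibits, was at 50.8 CPM in the AEG-1ΔMAC liver and 191.4 CPM in the floxed liver, a log2 ratio of -1.91 (-1.98 to -1.85). Angptl6, Angptl8 and Gpihbp1 lay between -0.06 and -0.02, and Lipc, the hepatic lipase, at 0.53. Vnn3, next to Vnn1 in the vanin family, was at 31.0 and 31.7 CPM (-0.03). Of 9 other acyl-CoA thioesterases tested, Acot11 was called higher (1.64) and Acot3 lower (-0.76). Both calls rest on few UMIs, 155 in AEG-1ΔMAC and 55 in the floxed liver for Acot11, and 75 and 141 for Acot3. Acot2, Acot4, Acot7, Acot8, Acot9, Acot12 and Acot13 lay between -0.49 and 0.29. Creb3, Creb3l1 and Creb3l2 had 0.25, -0.10 and 0.36.

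Regulation of Fgf21 was followed on both of its known arms and in its receptors. Of 7 ATF4 targets, 3 were called higher and 1 lower. Chac1, a glutathione-degrading enzyme, had 2.38, Trib3, a pseudokinase, 0.96 and the transcription factor Atf3 0.76, whereas Asns, asparagine synthetase, was at 1.23 CPM in the AEG-1ΔMAC liver and 14.7 CPM in the floxed liver (-3.58, interval -3.99 to -3.18). Atf4 itself was at 143.0 and 110.0 CPM (0.38). Fgf21 was thus on the side of Asns and opposite to Chac1 and Trib3. All 4 of these targets are below 10 CPM on average and were named after their values were seen. Of 5 FGF21 receptor genes only Fgfr3 was called (0.70), and the coreceptor gene Klb had 0.47. Of 6 CREB3L3 targets, Hamp, the iron hormone hepcidin, was called higher (1.11) and Apcs, serum amyloid P, lower (-0.95). Apoa5 had 0.58 and Apoa4 had -0.09, and the zone ratio of Apoa4 was -1.36 in the AEG-1ΔMAC liver and 0.01 in the floxed liver.

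**Figure D4:**
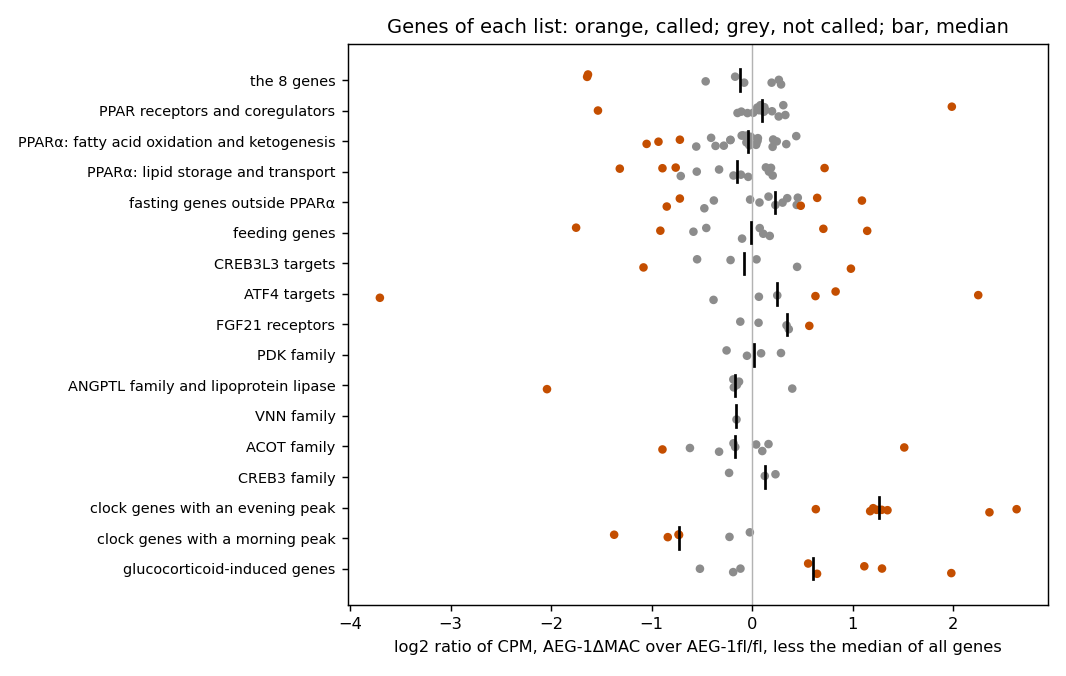
Log2 ratio between the livers (AEG-1ΔMAC divided by floxed, CPM) less the median of all genes tested, with 1 point per gene, orange where called without centring and grey where not, and a black bar at each list's median. The 8 genes spread from -1.64 to 0.29, and the evening clock genes lie to the right with a median of 1.26.

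Gene lists of nutrition, the clock and glucocorticoids were read beside the 8 genes. Of 15 fasting genes outside PPARα, 3 were called higher and 2 lower, with a median of 0.23. Those higher were Cebpb (1.22), a transcription factor of gluconeogenesis, Pck1 (0.78), which commits carbon to gluconeogenesis and is also a zone 1 marker of the index, and Klf15 (0.61), and those lower were Cdkn1a (-0.72) and Sik1 (-0.59). Ppard, Hilpda and Sik1 have means below 10 CPM and were likewise named after their values were seen. Of 10 genes induced by feeding, 2 were called in each direction, with Thrsp at 1.27, Pklr at 0.84, Scd1 at -1.62 and Acly at -0.78, and a median of -0.01. Pdk4 and Fgf21 thus differed in the direction opposite to the fasting genes Pck1 and Cebpb. Their direction was that of Cdkn1a and Sik1 in the same list, and of Igfbp1 (-0.35) and Irs2 (-0.25), which were not called. All 8 clock genes with an evening peak were called higher, with a median of 1.26, among them Dbp (2.76) and Nr1d1 (1.42). Of 6 with a morning peak 4 were called lower, with a median of -0.73, among them Arntl (-0.71) and Nfil3 (-0.60). Of 8 glucocorticoid-induced genes 5 were called higher, with a median of 0.60, among them Dusp1 (2.11) and Fkbp5 (1.24). The part of feeding state, clock time, glucocorticoid exposure and diet in the ratios of the 8 genes was not tested, and with 1 mouse per genotype they cannot be told apart from the genotype.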

How the data were processed

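The authors deposited raw counts, as UMIs per gene and spot, for 2 Visium libraries, made with Space Ranger 2.0.1 against mm10 and its probe set. The tools named in the submitters' processing notes include Seurat 4.3.0. Probe counts depend on how well probes bind, so levels were compared gene by gene.

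By the limits that the study states, spots with over 50000 UMIs, under 100 genes or over 7000 genes were removed. UMIs were summed per library and scaled to CPM, so that a level of 1 CPM came from 45.5 UMIs of the AEG-1ΔMAC section and 50.3 UMIs of the floxed one. Log2 ratios carry exact conditional binomial 95% intervals and levels exact Poisson ones, and both cover counting error only. A UMI removes PCR copies. The study tested single spots, which are not replicates of a genotype, and no such test was run here. Groups came from the genotype labels. Both libraries were run on the same slide. Genes were tested where the mean level of the libraries was 1 CPM or more, and called at a ratio of 1.5. Zone parts were made within each library. The scripts were tested on simulated data. Python 3.11.15, numpy 2.4.6, scipy 1.17.1, pandas 2.3.3 and matplotlib 3.10.9 were used, with R 4.3.3 and edgeR 4.0.16 for the trimmed mean of M-values (TMM).

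The 8 genes and the gene lists were chosen with earlier results of these data known. All 8 genes were described. From each list, the up to 4 highest and 4 lowest ratios at a mean of at least 10 CPM, and every family gene, could be named. Some genes of these lists are not reported here. Likeness used the 3 highest correlations per gene. Cyp4a31, Elovl6, Ciart, Glul and Hba-a1 were not analysed here, and Ddit3 was left out because it has 2 identifiers. Coordinates are from GENCODE on GRCm38, the assembly of mm10.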

Additional observations from a re-analysis of the deposited data

How the results depend on the processing

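Pdk4 and Fgf21 were called lower under each of the 8 alternative scalings, spot sets and weightings and at a ratio of at least 2, with log2 ratios from -1.91 to -1.51 for Pdk4 and from -1.65 to -1.36 for Fgf21 over all settings. With a minimum mean of 10 CPM, 5 of the 8 genes were left and 0 were called lower, since both genes have lower means. The median of all genes fell by 0.12 with TMM factors, by 0.13 with median-of-ratios factors and by 0.14 without the 50 most abundant genes. Under these the ratio of Creb3l3 turned to -0.075, -0.081 and -0.093. Over all genes tested, centring on the median moved the calls from 590 higher and 436 lower to 376 higher and 618 lower. Of the 64 ratios of single genes between the livers under these alternatives, 46 stayed inside the original interval, 15 moved beyond it in the same direction and 3 reversed, and of the 96 zone ratios 80 stayed and 16 moved. With equal weights over joint zone bins the medians relative to all genes were -0.14 for fatty acid oxidation and ketogenesis, -0.34 for lipid storage and transport and -0.0039 for CREB3L3 targets. The median for feeding genes was 0.042 as a mean over spots. In AEG-1ΔMAC 0 genes were called higher in zone 1 with thinned spots or at a ratio of at least 2, and in AEG-1fl/fl 1 was with thinned spots (Ppargc1a). The cause of these moves was not tested beyond the way each alternative is built. Counts of 40 to 76 UMIs per zone part limit Pdk4 and Fgf21 in AEG-1ΔMAC. No paired analysis was possible because each genotype had 1 library.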
